A study of Mus musculus with 6 samples.

Results

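Gzmm and Cdc34 are the 2 genes described here, out of 9720 protein-coding genes measured in sorted mouse cones. They lie next to each other on chromosome 10. They were picked by name after their values in the comparison of Bmal1 knockout and control cones were known, so that comparison is given for them as a description, without a test. RNA of 6 libraries was sequenced after poly(A) selection, 3 from knockout and 3 from control mice. Both groups were adult C57BL/6 (with mixed background), labelled as postnatal day 60 to 80 and also as 2 to 6 months old, and were kept with 12 h light and 12 h dark per day. Knockout mice had the genotype HRGPcre;Bmal1f/f;Z/EG and control mice HRGPcre;Bmal1f/+;Z/EG. All of them therefore carried the cone-directed Cre transgene HRGPcre, which uses a human red/green pigment promoter, and the Z/EG reporter, by whose eGFP the cones were sorted. The controls also had a floxed Bmal1 allele, so they are heterozygous after recombination and not free of Cre. The labels give neither the time of day of collection nor whether a library pooled animals.

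BMAL1 is a transcription factor that pairs with CLOCK, binds E-box sequences and drives genes in a daily rhythm, and PER and CRY proteins feed back to repress it. Gzmm encodes granzyme M, a serine protease that cleaves after methionine and is known from the cytotoxic granules of natural killer cells, where perforin lets granzymes enter target cells. Cdc34 encodes a ubiquitin-conjugating (E2) enzyme that works with SCF ligases, complexes in which cullin 1, RBX1, SKP1 and an F-box protein bring the substrate to the E2. Beta-TrCP, an F-box protein of such ligases, marks PER proteins for degradation.

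The start regions of both genes are printed because the genes are close together and BMAL1 acts through short DNA motifs. Cdc34 spans chr10:79682195-79688398 and Gzmm spans chr10:79689020-79695261, both on the plus strand (GRCm38, GENCODE vM21, with gene IDs ENSMUSG00000020307.14 and ENSMUSG00000054206.2 in the deposited table). Between the end of Cdc34 and the start of Gzmm lie 621 bases, and no other annotated gene overlaps either of them. RefSeq (GRCm38.p6) gives Gzmm a pair of start sites, at position 79689020 and, inside the gene, at 79693826, and Cdc34 a single one at 79682195. Each window below runs from 250 bases before the start to 50 bases after it. Capitals mark matches, on either strand, to the E-box (CACGTG), the E-prime box (CACGTT), the D-box bound by PAR bZIP factors (TTATGTAA or TTACGTAA), the core of the element bound by ROR and REV-ERB receptors (TAGGTCA or TGGGTCA) and the site of the photoreceptor factor CRX (TAATCC).
Gzmm, upstream start, chr10:79688770-79689069: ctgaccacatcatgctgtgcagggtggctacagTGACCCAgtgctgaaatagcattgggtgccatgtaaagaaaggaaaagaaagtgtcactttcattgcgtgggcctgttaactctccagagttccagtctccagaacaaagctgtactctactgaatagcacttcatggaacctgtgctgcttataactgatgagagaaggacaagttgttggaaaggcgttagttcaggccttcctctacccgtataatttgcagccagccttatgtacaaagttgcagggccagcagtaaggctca
Gzmm, internal start, chr10:79693576-79693875: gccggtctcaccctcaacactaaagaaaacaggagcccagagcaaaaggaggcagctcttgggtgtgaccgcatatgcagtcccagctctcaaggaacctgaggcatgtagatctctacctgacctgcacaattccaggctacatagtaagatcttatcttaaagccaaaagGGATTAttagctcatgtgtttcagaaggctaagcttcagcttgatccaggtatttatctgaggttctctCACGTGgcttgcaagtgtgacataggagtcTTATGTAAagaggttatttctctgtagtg
Cdc34, chr10:79681945-79682244: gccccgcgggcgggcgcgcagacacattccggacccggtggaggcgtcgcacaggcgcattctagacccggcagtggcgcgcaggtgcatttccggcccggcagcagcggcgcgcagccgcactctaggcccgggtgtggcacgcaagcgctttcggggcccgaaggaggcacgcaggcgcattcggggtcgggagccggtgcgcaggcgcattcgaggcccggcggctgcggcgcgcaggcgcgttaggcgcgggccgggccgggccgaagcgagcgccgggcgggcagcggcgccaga

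The internal Gzmm window held an E-box at bases 79693817 to 79693822, whose first base is at position -9 from that start. It also held a D-box whose first base is at position 22 and a CRX match at position -78. All 3 matches lie in the intron between exons 2 and 3 of the full-length transcript Gzmm-201, and the E-box and D-box lie in the first exon of the shorter, non-coding transcript Gzmm-202. These transcripts share exons, and levels are given per gene, so the level of Gzmm cannot be assigned to either transcript. The upstream Gzmm window held a ROR element core at position -217 and none of the other motifs. The Cdc34 window held none of the 5 motifs. Of 32851 promoter windows of the same length, 7.15% hold the E-box, 4.68% the E-prime box, 1.06% the D-box, 6.45% the ROR element core and 7.06% the CRX site. An E-box together with a D-box, a pair counted after it had been seen in Gzmm, is found in 9 windows (0.0274%). The base composition of the windows also differs, with 47.3% and 46% G and C and 3 CpG dinucleotides in each Gzmm window, and 77.3% G and C and 50 CpG in the Cdc34 window, against medians of 52.7% and 7 over all windows. A match of letters is a description, and it does not show that a factor binds there.

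**Figure D1:**
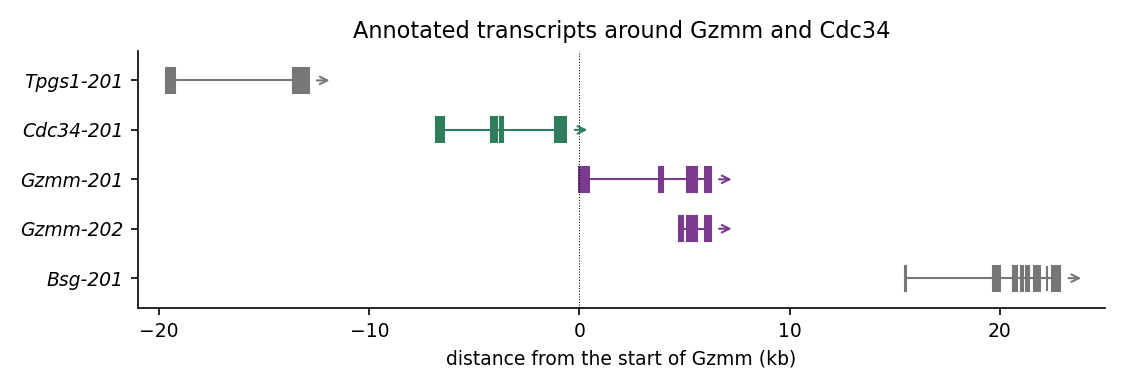
Annotated transcripts around the 2 genes (GENCODE vM21), drawn to scale as distance in kb from the start of Gzmm. Boxes are exons and arrows give the direction of transcription; Tpgs1, Cdc34, Gzmm and Bsg all point the same way, and the short transcript Gzmm-202 begins inside Gzmm.

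Gzmm was under 1 FPKM in knockout cones and readily measured in control cones. Its level was 0.612, 0.102 and 0.837 FPKM in the 3 knockout libraries, against 7.84, 12.9 and 7.66 FPKM in the 3 control libraries. FPKM count fragments per transcript length and library size, so levels can be compared between genes. Every knockout library was below every control library, and the lowest control value was 6.82 FPKM above the highest knockout value. The mean was 0.517 ± 0.377 FPKM in knockout cones and 9.48 ± 3.001 FPKM in control cones (SD, n = 3 each), an 18.3-fold lower mean. No value in the table is under 0.1 FPKM and knockout 2 sits just above that floor, so the fold rests on low values, among them 1 near the floor. On the log2(FPKM + 1) scale, which understates differences of low genes, the difference was -2.78 ± 0.27 (SE). Only 3 of 8627 tested genes had a lower difference. The mean of control cones was above that of 76.8% of the table's genes in the same libraries, and the mean of knockout cones was above that of 4.25%. Gzmm reached the filter of a mean of 1 FPKM over all libraries only through its control values.

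Cdc34 was also lower in knockout cones, by a smaller amount. It measured 2.34, 3.14 and 5.68 FPKM in the knockout libraries, against 8.34, 6.46 and 7.53 FPKM in the control libraries. The groups did not overlap, but only 0.777 FPKM separated knockout 3 from control 2. The mean was 3.72 ± 1.74 FPKM in knockout cones and 7.44 ± 0.944 FPKM in control cones (SD, n = 3 each). The log2 difference was -0.89 ± 0.27 (SE), and 64 tested genes had a lower one. Relative spread was wider in knockout libraries, with a coefficient of variation of 46.8% against 12.7% in control libraries. In knockout cones Cdc34 was near the middle of the table, above 50.5% of its genes, and in control cones above 70.7%. In bulk samples, fewer expressing cells and less RNA per cell cannot be told apart.

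Set against each other, the neighbours were not lowered to the same degree. The level of Gzmm over that of Cdc34 was 0.261, 0.0324 and 0.147 in the knockout libraries, against 0.941, 2.01 and 1.02 in the control libraries. Gzmm was thus at a similar or higher level than Cdc34 in each control library and at the lower level in each knockout library. The libraries that were extreme also differed. Among knockout cones Gzmm was lowest in library 2 and Cdc34 in library 1, and among control cones Gzmm was highest in library 2, where Cdc34 was lowest. Background for such groups that do not overlap is 5.87% of all tested genes lower in knockout and 3.52% higher, and 0.104% of tested genes passed an adjusted p of 0.05 (limma, Benjamini-Hochberg, 9 genes). The comparison served to choose both genes, so nothing is read from their place in these shares.

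**Figure D2:**
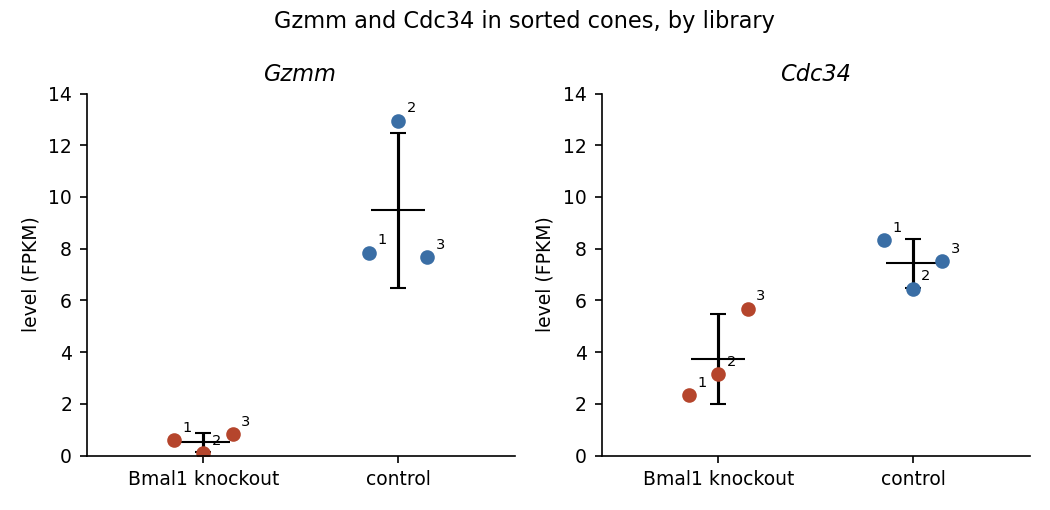
Levels of Gzmm (left) and Cdc34 (right) in FPKM for each library, knockout left of control, with the library number beside each point. Horizontal marks are means and bars are SD (n = 3 each); Gzmm is at or under 0.837 FPKM in knockout cones and at or above 7.66 FPKM in control cones, and Cdc34 shows a smaller gap.

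Few genes fell within limits set around the values of Gzmm. Of 4086 genes with a control mean of at least 5 FPKM, 8 had a knockout mean under 1 FPKM, with limits chosen after the values were seen, so this count describes the choice and supports nothing. In 5 of the 8 (Fam169a, Gm11099, Nsa2, Ptpn6 and Stmn2), at least 1 control library fell within the knockout range. The remaining 3 were Gzmm, the period gene Per3 and Nr1d2, which encodes the clock repressor REV-ERB beta, and their groups did not overlap. In the opposite direction, 4 of 3920 genes with a knockout mean of at least 5 FPKM had a control mean under 1 FPKM, and all 4 (Gm21836, Gm10181, Gm21961 and Gm17374) had overlapping groups.

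The genes whose profile over the 6 libraries was most like that of Gzmm were clock genes and Cplx3. Likeness was the root mean square difference between log2(FPKM + 1) values, each centred on the gene's own mean, and a smaller value means more alike. The nearest was Per3 at 0.45, followed by Cplx3, which encodes a complexin of ribbon synapses, at 0.47. Nr1d1, which encodes REV-ERB alpha, and Nr1d2 were each at 0.48. Plk5, a polo-like kinase gene that lies 661197 bases beyond Gzmm on chromosome 10, was at 0.73. Per3 had group means close to those of Gzmm, at 0.635, 0.324 and 0.717 FPKM in knockout libraries, against 11.3, 7.15 and 11.9 FPKM in control libraries. Its order within groups differed in part, since Per3 was lowest in control 2, where Gzmm was highest. Cdc34 was farther away, at 1.03, and 48 tested genes were nearer to Gzmm than it was. All of these share the same 6 libraries, and nothing about control of the genes follows from likeness. The measure keeps the difference between the groups, which was known when Gzmm was chosen. Genes near Gzmm are therefore bound to be strongly lowered ones, and their likeness restates that choice. In the windows of the same kind, Cplx3 held an E-box and a ROR element core, Nr1d1 an E-prime box and Per3 a D-box, and Nr1d2 and Plk5 held none of the 5 motifs. Over all windows each of the 5 motifs is found in 1.06% to 7.15%. Whether they are more common at these genes was not tested.

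The profile of Cdc34 was nearest to a different set of genes. They were Nbl1, which encodes a BMP antagonist, at 0.086, 2410015M20Rik at 0.097, Gdap1l1 at 0.10, Ftl1, a ferritin light chain gene with near-identical copies that makes its reads uncertain, at 0.11 and Ptms, which encodes parathymosin, at 0.13. For each of these, as for Cdc34, knockout 1 was the lowest library. Ftl1 measured 3.05, 3.88 and 5.70 FPKM in knockout libraries, against 8.41, 7.54 and 9.25 FPKM in control libraries. Gzmm was lowest in knockout 2 instead. A total of 8537 tested genes had a profile nearer to that of Cdc34 than Gzmm had. The measure includes the size of the group difference, -2.78 for Gzmm and -0.89 for Cdc34, so this count does not describe order alone. The transcripts of these 5 genes had a GC content of 52.9% to 65.3%, and that of Cdc34 was 63.3%, against a median of 48.9% over tested genes. The part of GC content in the likeness was not tested.

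**Figure D3:**
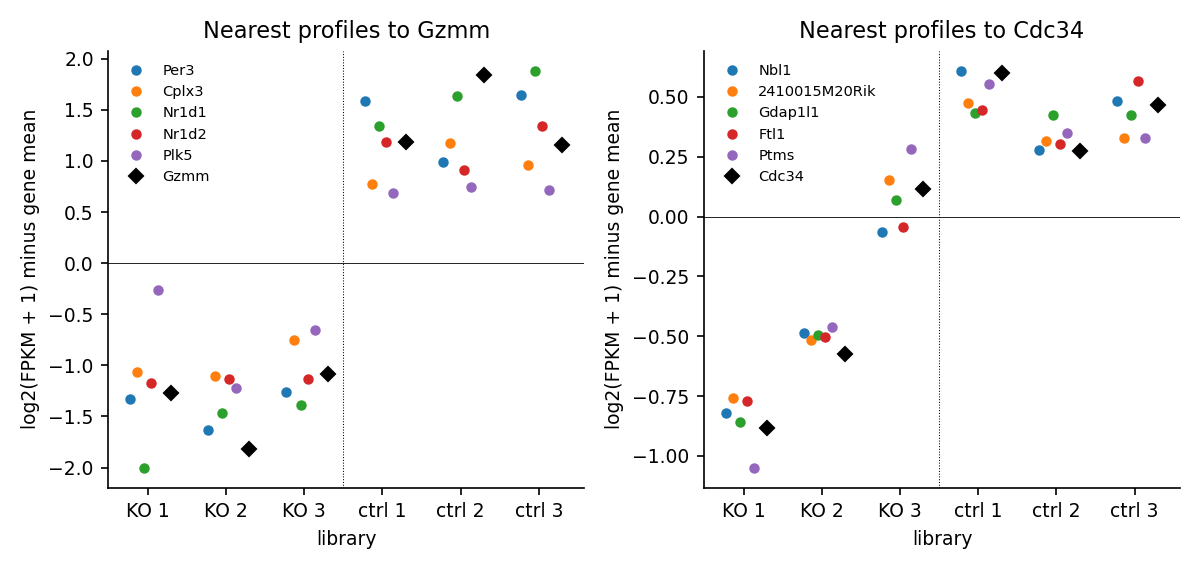
Centred log2(FPKM + 1) values per library for Gzmm (left) and Cdc34 (right), as black diamonds, with the 5 genes of nearest profile as coloured points; knockout libraries (KO) are left of control libraries (ctrl). Gzmm and its nearest genes are low in all 3 knockout libraries, while Cdc34 and its nearest genes are lowest in knockout 1 and closest to controls in knockout 3.

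Gzmm was the single granzyme gene in the table. Of 10 other genes in the list of granzymes and perforin, none is among the 9720 genes, and neither are Prss57, Prtn3, Elane and Cfd, the 4 other granule serine protease genes of that stretch of chromosome 10. The table holds only genes above 1 FPKM in at least 1 library, and genes outside it were not analysed here. Of 24 markers of natural killer and T cells, Cd247, a T cell receptor chain gene, was the only member in the table. It measured 0.252, 0.803 and 0.245 FPKM in knockout libraries, against 1.64, 0.302 and 0.1 FPKM in control libraries, and control 1 alone exceeded 1 FPKM. Control 2 had the highest Gzmm, 0.302 FPKM of Cd247 and 18.9 FPKM of Ptpn6, a gene outside these lists. In controls 1 and 3 Ptpn6 was at 0.1 FPKM, and Gzmm at 7.84 and 7.66 FPKM. Whether other cells contributed to the level of Gzmm was not tested. Of 12 clade B serpins, a family of intracellular protease inhibitors that includes granzyme inhibitors, only Serpinb6a was in the table. It averaged 2.78 ± 0.233 FPKM in knockout cones and 1.69 ± 0.905 FPKM in control cones, with an adjusted p of 0.90 (limma), and control 1 was the lowest library at 0.715 FPKM.

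The sorted cells carried cone transcripts in both groups, with rod transcripts beside them. All 15 cone markers were present, and their summed level was 6314 to 7203 FPKM in knockout libraries and 4391 to 7315 FPKM in control libraries. Opn1sw, the S-opsin gene, averaged 1947 ± 160 FPKM in knockout cones and 981 ± 235 FPKM in control cones, and Gngt2, a cone transducin subunit gene, averaged 1002 ± 162 and 1211 ± 489 FPKM in knockout and control cones. The 15 rod markers summed to 2654 to 3740 FPKM in knockout libraries and 3095 to 3806 FPKM in control libraries, led by Pde6g and Sag. C1qb, a complement gene of microglia and macrophages, averaged 0.158 ± 0.101 FPKM in knockout cones and 0.656 ± 0.719 FPKM in control cones. No tested marker of these lists passed, where 0.104% of all tested genes did. An unadjusted p under 0.05 (limma) was found for 2 of 15 cone and 0 of 15 rod markers, against 5.49% of all tested genes. Knockout was higher without overlap of the groups in 2 of 15 cone and 3 of 15 rod markers, against 3.52% of all tested genes. In 0 of them was knockout lower without overlap, against 5.87%. Arntl, which encodes BMAL1, averaged 3.05 ± 0.663 FPKM in knockout cones and 2.96 ± 0.341 FPKM in control cones. It was read over the full gene and not over the floxed part, which is not named in the labels, so it is no check of the genotype. Control 1 stood apart, with a mean Pearson correlation across genes of 0.90 to the other libraries, where the others had 0.93 to 0.95. Without it the log2 difference was -2.89 for Gzmm and -0.82 for Cdc34.

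Genes around the pair tended to lower values in knockout cones, but none passed the test. Of 47 other protein-coding genes annotated within 500 kb of Gzmm, 23 are in the table and 19 were tested. In limma 0 of 19 had an adjusted p under 0.05, against 0.104% of all tested genes, and 4 of 19 had an unadjusted p under 0.05, against 5.49% of all tested genes (474 of 8627). The log2 difference was negative for 16 of 19 and ranged from -0.90 to 0.69, so each neighbour was less lowered than Gzmm. The median was -0.39, against -0.02 over all 8627 tested genes, of which 52.6% were negative. In 5 of the 19 the groups did not overlap and knockout was lower (Bsg, Ptbp1, Stk11, Midn and Cirbp, listed for that reason after their values were seen), and in 0 was knockout higher, against backgrounds of 5.87% and 3.52%. The transcripts of these neighbours are rich in GC, with a median of 59.5%. When GC content and length were corrected for, the median of the neighbours was -0.25, with 12 of 19 negative, and the difference was -2.60 for Gzmm and -0.66 for Cdc34.

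Of the nearest neighbours in the table, Tpgs1 had overlapping groups, while Bsg was lower in knockout cones by a smaller amount than Gzmm. On the Cdc34 side, Tpgs1, which encodes a subunit of a tubulin polyglutamylase, measured 1.43, 3.67 and 4.73 FPKM in knockout libraries, against 2.30, 4.18 and 4.11 FPKM in control libraries. Its groups overlapped, and its log2 difference of -0.14 ± 0.32 (SE) turned positive with the GC and length correction and without knockout 1. C2cd4c and Theg, the next genes in the table on that side, were under the filter, with means of 0.463 and 0.1 FPKM in knockout cones and 0.844 and 0.581 FPKM in control cones. On the other side, 9229 bases beyond Gzmm, Bsg encodes basigin, a membrane glycoprotein that binds the rod-derived cone viability factor and accompanies lactate transporters. Bsg measured 40.7, 73.01 and 87.3 FPKM in knockout libraries, against 88.0, 136 and 143 FPKM in control libraries. Its groups were apart by less than 1 FPKM, and its log2 difference of -0.90 ± 0.32 had an adjusted p of 0.77 (limma).

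Farther along the same side, Polrmt, which encodes the mitochondrial RNA polymerase, measured 17.2, 9.14 and 9.37 FPKM in knockout libraries, against 1.40, 17.9 and 9.04 FPKM in control libraries. Its positive difference of 0.69 ± 0.56 rested on the low value of control 1 and was negative without that library and with array weights. Rnf126, a ubiquitin ligase gene, averaged 3.72 ± 1.13 FPKM in knockout cones and 3.99 ± 0.263 FPKM in control cones. Of the lower genes with the smallest p, Stk11, which encodes the kinase LKB1, averaged 18.8 ± 0.449 FPKM in knockout cones and 30.4 ± 6.79 FPKM in control cones (adjusted p = 0.78, limma). Gpx4, a glutathione peroxidase gene, averaged 20.8 ± 6.73 FPKM in knockout cones and 36.9 ± 11.3 FPKM in control cones (adjusted p = 0.81, limma). The other positive differences were 0.30 for Wdr18 and 0.09 for 1600002K03Rik, and both turned negative without control 1.

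**Figure D4:**
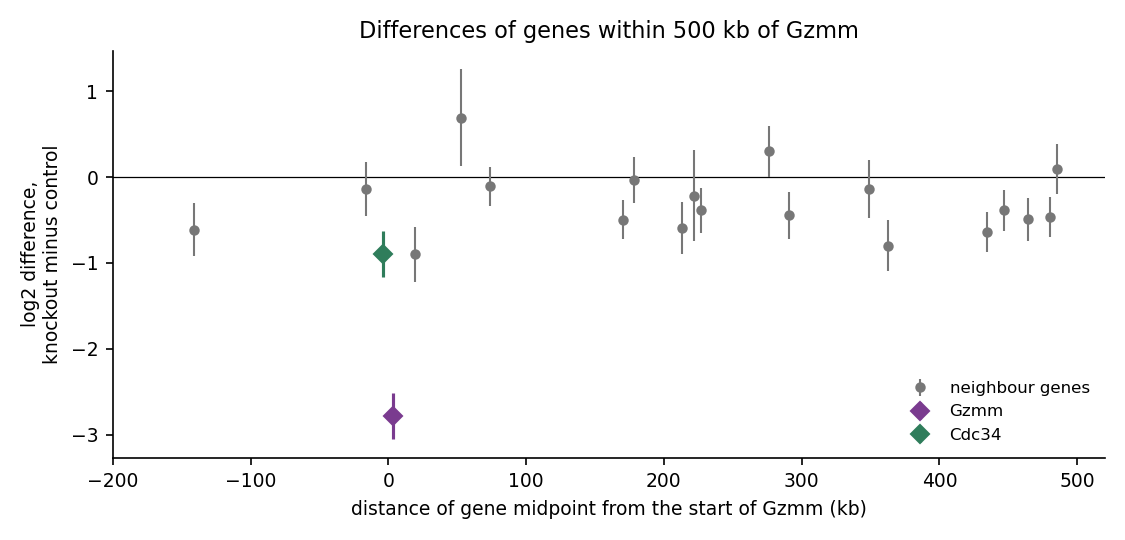
Log2 difference, knockout minus control, of the 19 tested genes within 500 kb (grey) and of Gzmm and Cdc34 (diamonds), by distance of the gene's midpoint from the start of Gzmm in kb; bars are SE. Most grey points lie between 0 and -0.90, with a median of -0.39; Cdc34 at -0.89 is at their low end beside Bsg, and Gzmm lies under all of them at -2.78.

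Cdc34 stood at the low end of the E2 enzymes, most of which hardly differed between the groups. Of the 28 E2 genes in the table it had the lowest log2 difference, and its level ranked 24 of 28 in knockout cones and 13 of 28 in control cones. Cdc34 was chosen with this comparison known and the other E2 genes were not, so its rank is a description and supports nothing. None of the other 27 passed in limma, against 0.104% of all tested genes, so this count says little about them. At an unadjusted p under 0.05 (limma) there were also 0 of 27, against 5.49% of all tested genes. Their differences ranged from -0.25 to 0.47 with a median of 0.01. Ube2r2, the paralogue of Cdc34, measured 13.3 ± 3.20 FPKM in knockout cones and 14.03 ± 2.70 FPKM in control cones, a log2 difference of -0.08 (95% interval -0.61 to 0.44). Ube2d3, the most abundant E2 gene, averaged 88.6 ± 32.1 FPKM in knockout cones and 61.2 ± 4.62 FPKM in control cones (adjusted p = 0.92, limma). Ube2b averaged 14.8 ± 1.28 FPKM in knockout cones and 11.8 ± 4.39 FPKM in control cones, and Ube2e1 averaged 12.8 ± 0.948 and 10.3 ± 3.32 FPKM in knockout and control cones.

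Partners of Cdc34 in SCF ligases were listed in the same way. Of 19 core and cofactor genes tested, 0 passed in limma, against 0.104% of all tested genes, so this count says little about them. An unadjusted p under 0.05 (limma) was found for 1 of 19, a share near the 5.49% of all tested genes. That gene was Glmn, which encodes glomulin, an inhibitor that keeps CDC34 from RBX1, and it was also the most abundant of the list. It averaged 36.5 ± 5.36 FPKM in knockout cones and 24.2 ± 5.42 FPKM in control cones (adjusted p = 0.90, limma). The scaffold gene Cul1 averaged 18.8 ± 4.05 and 17.9 ± 4.09 FPKM in knockout and control cones, and Rbx1, the RING subunit that binds the E2, averaged 12.0 ± 2.49 and 11.2 ± 4.82 FPKM; both were added after their values were seen. Cops8, a signalosome subunit gene, averaged 7.01 ± 0.180 FPKM in knockout cones and 9.24 ± 0.987 FPKM in control cones, and Cops2 averaged 21.7 ± 8.20 and 15.8 ± 0.943 FPKM in knockout and control cones.

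Among 13 tested F-box genes, 0 passed in limma, against 0.104% of all tested genes, and 1 had an unadjusted p under 0.05, against 5.49%. Fbxw5 averaged 5.64 ± 2.17 FPKM in knockout cones and 9.57 ± 0.721 FPKM in control cones (log2 difference -0.72 ± 0.26, adjusted p = 0.79, limma). Fbxo11 averaged 14.9 ± 1.21 and 11.7 ± 3.25 FPKM and Fbxw2 averaged 18.6 ± 1.72 and 15.4 ± 3.90 FPKM in knockout and control cones. Of 5 tested genes for SCF substrates, 0 passed in limma and 0 had an unadjusted p under 0.05. The log2 difference was negative for 4 of 5, against 52.6% of all tested genes, and that of Ctnnb1 turned positive without knockout 2 and without control 3. The positive gene, named to complete the 5, was Nfkbia at 0.12. Myc averaged 0.283 ± 0.175 FPKM in knockout cones and 2.57 ± 4.29 FPKM in control cones. Its control mean came from control 1 at 7.52 FPKM, since controls 2 and 3 were both at the floor of 0.1 FPKM, below the knockout mean. Cdkn1b, which encodes the cell cycle inhibitor p27, averaged 2.03 ± 0.712 and 2.36 ± 0.149 FPKM, Ccnd1 1.13 ± 0.141 and 1.31 ± 0.151 FPKM, and Ctnnb1, the most abundant of these, 15.8 ± 4.44 and 17.8 ± 5.47 FPKM in knockout and control cones. Over all 63 tested genes of the ubiquitin lists other than Cdc34, the median was 0.01 and 29 were negative.

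**Figure D5:**
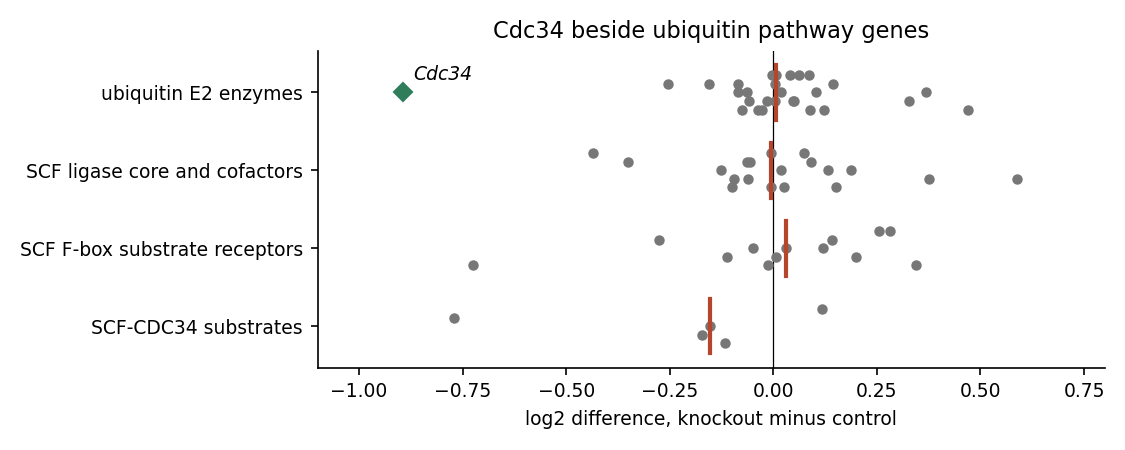
Log2 difference, knockout minus control, of tested genes of the 4 ubiquitin lists (grey points, spread vertically for legibility), with the list median as a red bar and Cdc34 as a green diamond. Medians lie near 0 except for the 5 substrate genes at -0.15, and Cdc34 lies at -0.89.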

How the data were processed

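The authors deposited FPKM values (fragments per transcript length and library size), with 1 column for each of the 6 libraries; 100 ng of RNA per sample entered a strand-directional poly(A) kit, per the labels' protocols. Per the submitters' processing notes, mm10 was the build, and DESeq2, HTSeq, Cufflinks 2.2.1 and TopHat2 2.1.0 were used in roles not stated there. The tool that made the FPKM, the annotation and the use of strand are not given in the labels. Sums of 84995 to 128773 FPKM per library are not read totals, and ratios between libraries over 1403 low genes did not recur (at most 0.428% of genes shared a ratio), so whole reads were not recovered and the depth is unknown. Errors come from the spread between libraries, which may be technical in part, since the labels do not say that libraries are separate animals.

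On log2(FPKM + 1) values of the 8627 genes averaging 1 FPKM or more, knockout was compared with control in limma 3.58.1 in R 4.3.3 (variance trend, two-sided, Benjamini-Hochberg over all tested genes, threshold 0.05), tested on simulated data. All adjusted p-values are from limma. Gene IDs were matched to GENCODE vM21 (9702 of 9720), promoters to RefSeq (both genes). Python 3.11.15, pandas 2.3.3 and numpy 2.4.6 were used.

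The 2 genes, the lists and the tests were chosen with earlier results of these data known. Genes named are the pair; of the neighbours within 500 kb the 3 nearest in the table on each side, the 3 of smallest p in each direction and the most abundant; every serpin, granzyme and protease gene in the table; of the ubiquitin lists the 2 to 4 of smallest p, the most abundant and Ube2r2; the 2 most abundant markers; and the 5 nearest profiles. A few genes this rule names are not reported here. Alternatives covered pseudocount, filter, scaling, variance model, weights, GC content and length, replicate block, window and each library left out.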

Additional observations from a re-analysis of the deposited data

How the results depend on the processing

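Gzmm stayed lower in knockout cones in all 18 alternatives. Its log2 difference was -3.33 with a pseudocount of 0.5, -4.18 with 0.1 and -4.15 with libraries scaled to 1000000 FPKM each, settings in which the pseudocount weighs less against low values. Leaving out 1 library gave -2.94 to -2.56 for Gzmm and -1.18 to -0.68 for Cdc34, which was also lower in all 18. Over all genes 9 passed; 23 passed with array weights, 4 with the GC and length correction together with the replicate block, and 6 to 13 with 1 library left out, the highest without control 1 (the cause was not tested). The replicate block alone gave 6. Deviations of same-numbered libraries correlated at -0.12, -0.09 and -0.03, so no pairing by number was seen. With 3 libraries per group, each centred on its group mean, this check cannot settle whether the numbers pair the libraries. No neighbour and no gene of the ubiquitin, granzyme or serpin lists passed in any alternative. The neighbour median was -0.30 within 250 kb and -0.39 within 1000 kb, and within 500 kb it was -0.52 to -0.26 with 1 library left out. Within 1000 kb, 8 of 33 tested genes had an unadjusted p under 0.05 (limma), against 5.49% of all tested genes. The lowest of the 33 was Plk5, at -1.43 (adjusted p = 0.083, limma), and 9 of the 33 differences were positive. With 3 libraries per group and unknown depth, levels under 1 FPKM, such as those of Gzmm in knockout cones, are imprecise.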
